A study of Mus musculus with 12 samples.

Results

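Expression of a set of p53 pathway genes was followed in mouse liver. The set held Trp53, which encodes the transcription factor p53, and 8 genes whose transcription p53 drives, namely Bbc3, Cdkn1a, Mdm2, Ccng1, Bax, Trp53inp1, Phlda3 and Eda2r. They were listed by symbol, with earlier results of these data known, and make up 9 of the 56923 features in the count table. All 9 passed the filter on low counts that left 16839 features for testing. RNA was sequenced from whole livers of wild-type C57BL/6J mice that were 6 weeks old at the start. All 12 mice had received 200 μL of 7.5% carbon tetrachloride (CCl4) in olive oil into the peritoneum, 2 times a week for 6 weeks, to produce liver fibrosis. There were 4 groups of 3 mice: CCl4 alone (control), and CCl4 with curcumin by daily gavage for 2 weeks at 25 (low), 50 (medium) or 100 mg/kg (high). The comparisons address what curcumin, a plant polyphenol, did in livers that CCl4 had injured. No liver without CCl4 was analysed here, so every value describes injured liver. The labels state neither what the control mice were gavaged with nor which cage of 3 each mouse came from, and effects of gavage or cage cannot be told apart from those of curcumin.

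p53 is held at a low level in unstressed cells by the ubiquitin ligase Mdm2, and DNA damage or other stress frees it to switch on genes for cell cycle arrest, DNA repair and apoptosis. Mdm2 is itself a target, so the pathway restrains its own activity. p53 is controlled largely through its protein, so its targets are commonly read as a record of its activity, although most of them also answer to other factors. Bbc3, which encodes the apoptosis inducer PUMA, is also a known target of FOXO transcription factors. CCl4 is converted to a radical in hepatocytes that damages membranes and kills the cells, and regeneration follows.

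The libraries held 36015134 to 70376474 counts each, of which 30.3% to 64.7% came from mitochondrially encoded genes. After removal of those and of 11 nuclear features that are near copies of them, 5180318 to 36377767 counts remained. Expression levels below are CPM, counts scaled to a common library size by the trimmed mean of M-values (TMM). Hepatocyte markers were abundant throughout: Alb, the albumin gene, had at least 101419 counts in every library. All 10 hepatocyte markers lay above the control at every dose (median log2 fold change 0.46 at the low, 0.79 at the medium and 1.16 at the high dose). Their summed level did not separate the groups: it was 27190 to 47900 CPM in 4 curcumin livers and 5649 to 10100 CPM in the other 5, against 6306 to 12460 CPM in the controls. The summed neutrophil markers were 4.69 to 9.02 CPM in the 9 curcumin livers, below all 3 controls at 12.2, 40.0 and 10.6 CPM, and Ly6g was at 0 in 10 libraries. In bulk RNA, fewer cells of a type and less RNA per cell cannot be told apart.

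The members did not all differ from the control in the same direction. Bbc3 was lower in all 9 curcumin livers than in all 3 controls, with a mean of 2.69 ± 0.462 CPM with curcumin (SD, n = 9) against 5.63 ± 1.72 CPM in the control (SD, n = 3). Trp53inp1 was higher in all 3 high dose livers than in every control, at 44.2 ± 8.09 CPM against 16.5 ± 10.2 CPM (SD, n = 3 each). Livers given curcumin overlapped the controls at every dose for Trp53, Bax and Ccng1. No member passed the threshold of edgeR's quasi-likelihood test after Benjamini-Hochberg adjustment over all 16839 features, and neither did any other gene.

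Promoter sequences of 8 of the 9 members were found in RefSeq windows on build GRCm38.p6, as 11 windows that run from 250 bases before to 50 after an annotated start. A p53 half-site (10 letters, searched on both strands) occurred in 5 of the 8 members: Trp53, Cdkn1a, Mdm2, Ccng1 and Bax. Counted by window it was in 5 of the 11, against 8.36% of all 32851 windows, and 9.55% of all genes had it in at least 1 window. No exact match was found in the 3 windows of Bbc3. The search allowed no mismatch and covered these windows only, so an imperfect or more distant site would be missed. The absence of a match is therefore not the absence of a p53 site. The FOXO core TGTTTAC, searched on both strands and added after the sequences had been read, occurred in 1 window each of Bbc3, Mdm2 and Eda2r, against 3.65% of all windows and 4.05% of all genes. No match of one motif overlapped a match of the other. The 250 bases before the start are shown for the member that differed most regularly with treatment (Bbc3), for the classical p53 target (Cdkn1a) and for the member with both motifs (Mdm2), 5′ to 3′ on the gene's strand. Capitals mark the motif matches.
Bbc3, window 2, chr7:16310011-16310260, plus strand: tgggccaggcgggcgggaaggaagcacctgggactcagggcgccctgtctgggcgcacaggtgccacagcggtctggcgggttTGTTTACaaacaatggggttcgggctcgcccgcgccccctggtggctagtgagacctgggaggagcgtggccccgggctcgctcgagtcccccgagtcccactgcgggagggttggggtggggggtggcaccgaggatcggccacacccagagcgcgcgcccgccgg
Cdkn1a, window 1, chr17:29090729-29090978, plus strand: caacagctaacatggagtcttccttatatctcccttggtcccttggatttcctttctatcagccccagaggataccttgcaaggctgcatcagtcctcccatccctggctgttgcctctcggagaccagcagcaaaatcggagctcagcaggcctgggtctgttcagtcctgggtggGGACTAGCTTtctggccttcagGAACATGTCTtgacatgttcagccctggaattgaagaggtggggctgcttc
Mdm2, window 1, chr10:117710759-117711008, minus strand: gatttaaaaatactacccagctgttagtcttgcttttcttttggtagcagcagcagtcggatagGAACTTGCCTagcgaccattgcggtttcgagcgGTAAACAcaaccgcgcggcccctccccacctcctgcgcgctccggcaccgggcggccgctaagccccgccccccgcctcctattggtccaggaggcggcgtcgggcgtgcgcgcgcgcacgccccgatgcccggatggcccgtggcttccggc
The capitals in Bbc3 are a FOXO core at bases -167 to -161 from the start. Those in Cdkn1a are 2 p53 half-sites, GGACTAGCTT at -73 to -64 and GAACATGTCT at -51 to -42. Both are in window 1, and window 2 of Cdkn1a, at another annotated start, held no match. Imperfect half-sites next to a match are not in capitals, and how half-sites pair was not examined. Mdm2 holds a p53 half-site, GAACTTGCCT, at -186 to -177 and a FOXO core, read on the opposite strand, at -153 to -147. A match is a stretch of letters and not a measured binding site.

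Trp53 had 7.15, 10.3 and 10.35 CPM in the controls, 6.83, 6.09 and 7.21 CPM at the low dose, 8.23, 9.52 and 9.19 CPM at the medium dose, and 7.60, 10.7 and 8.003 CPM at the high dose. The low dose group was the lowest, and its highest liver lay just above the lowest control, so the groups overlapped at every dose. The log2 fold change was -0.47 ± 0.22 at the low dose (SE; edgeR adjusted p = 0.822), -0.05 ± 0.22 at the medium dose and -0.08 ± 0.22 at the high dose. None of the 3 passed the test.

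Mdm2, the ubiquitin ligase that marks p53 for degradation, had 17.5, 20.25 and 22.0 CPM in the controls, 15.5, 16.15 and 13.4 CPM at the low dose, 14.05, 19.6 and 19.8 CPM at the medium dose, and 6.36, 20.7 and 12.7 CPM at the high dose. All 3 low dose livers lay below all controls, and the high dose livers were the most widely spread, with replicate 1 the lowest of the 12. Its log2 fold changes were -0.41 ± 0.34, -0.16 ± 0.34 and -0.59 ± 0.34 at the low, medium and high dose (SE; edgeR adjusted p = 0.876, 0.997 and 0.462). The value at the high dose was -0.26 without replicate 1 of that group and -1.07 without replicate 2. Ccng1, whose product cyclin G1 recruits a phosphatase to Mdm2, had 6.62, 7.81 and 6.98 CPM in the controls, 6.40, 7.49 and 8.85 CPM at the low dose, 8.88, 6.26 and 6.68 CPM at the medium dose, and 10.3, 6.51 and 9.10 CPM at the high dose. Every dose overlapped the controls, and the log2 fold changes were 0.09 ± 0.23, 0.03 ± 0.23 and 0.28 ± 0.23 (SE; edgeR adjusted p = 0.959, 0.998 and 0.606).

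Mdm2 and Ccng1 divided the libraries by their mitochondrial share. The 4 libraries of lowest share were replicates 1 and 3 of the high dose, replicate 3 of the low dose and replicate 1 of the medium dose (30.3% to 48.3%, against 55.5% to 64.7% in the other 8). All 4 were curcumin livers, and the controls stood at 58.6% to 64.2%, so share and treatment cannot be fully told apart. They held the 4 lowest Mdm2 levels, 6.36 to 14.05 CPM against 15.5 to 22.0 CPM in the others. They also held the 4 highest Ccng1 levels, 8.85 to 10.3 CPM against 6.26 to 7.81 CPM. Of all tested genes, 6.07% lay below and 10.5% above in these 4 libraries in the same way, so a gene divided in this way is not rare. The summed hepatocyte markers divided the same libraries, at 27190 to 47900 CPM in the 4 and 5649 to 12460 CPM in the other 8, and their part in the levels of Mdm2 and Ccng1 was not tested. With the mitochondrial share as a covariate, the log2 fold changes at the high dose became -0.17 for Mdm2 and -0.06 for Ccng1, and the cause was not tested. Bbc3 did not divide in this way, at 2.29 to 3.07 CPM in the 4 libraries and 2.12 to 6.72 CPM in the other 8.

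**Figure D1:**
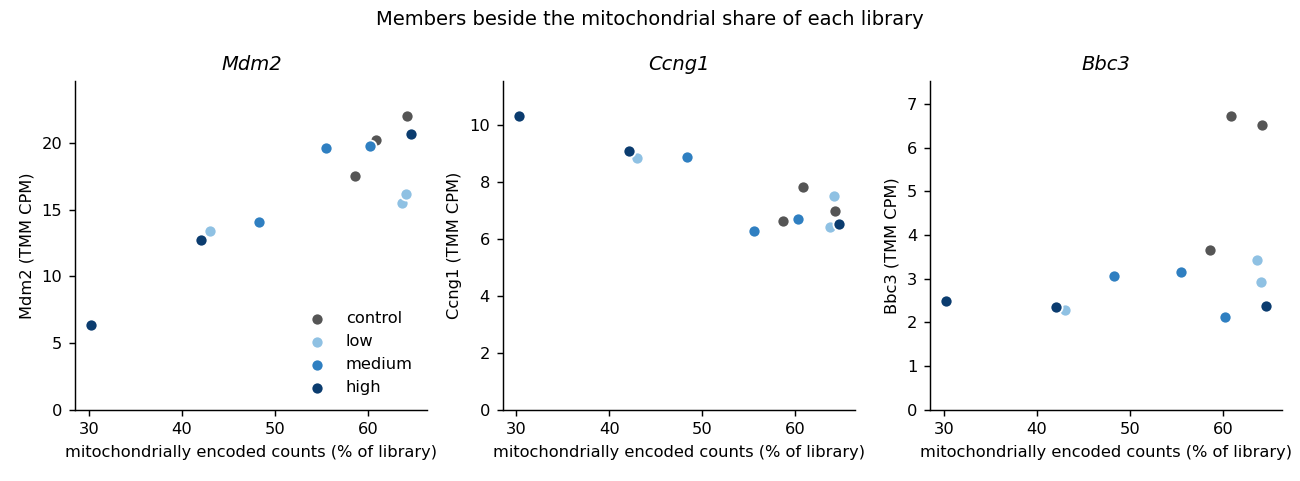
Levels of Mdm2, Ccng1 and Bbc3 (y axes, TMM CPM, from 0) against the share of each library's counts that came from mitochondrially encoded genes (x axes, %), 1 point per liver, coloured by group. Mdm2 is at its 4 lowest (6.36 to 14.05 CPM) and Ccng1 at its 4 highest (8.85 to 10.3 CPM) in the 4 libraries with shares of 30.3% to 48.3%. Those 4 are all curcumin livers, and the controls stand at 58.6% to 64.2%. Bbc3 is lower in all curcumin livers than in the controls.

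Bbc3 encodes PUMA, a BH3-only protein that binds the survival proteins of the BCL-2 family and so releases Bax and Bak to permeabilise mitochondria. It had 3.65, 6.72 and 6.53 CPM in the controls, 3.43, 2.93 and 2.29 CPM at the low dose, 3.07, 3.15 and 2.12 CPM at the medium dose, and 2.49, 2.37 and 2.35 CPM at the high dose. All 9 curcumin livers were below all 3 controls, and the gap was narrow, since replicate 1 of the low dose stood at 3.43 CPM and replicate 1 of the control at 3.65 CPM. Among all tested genes, 1.2% lay lower in all curcumin livers than in all controls, and 1.06% higher (2.26% in either direction). Group means ran 5.63 ± 1.72 CPM in the control, 2.89 ± 0.571 CPM at the low, 2.78 ± 0.574 CPM at the medium and 2.40 ± 0.0778 CPM at the high dose (SD, n = 3 each). The order of the means was that of the doses, but the low, medium and high groups overlapped one another.

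In edgeR the log2 fold change of Bbc3 was -0.97 ± 0.28 at the low dose (SE; adjusted p = 0.764), -1.02 ± 0.28 at the medium dose (adjusted p = 0.567) and -1.23 ± 0.28 at the high dose (adjusted p = 0.32). The linear slope over 100 mg/kg was -1.09 ± 0.30 (edgeR adjusted p = 0.407). In a comparison added after these values were seen, all 9 curcumin livers together stood at -1.07 ± 0.22 against the control (edgeR adjusted p = 0.225, unadjusted p = 0.000297), which ranked Bbc3 18th of 16839 genes. Its unadjusted p ranked 97th at the low, 96th at the medium and 37th at the high dose. The 3 dose comparisons share the same 3 controls, so they are not independent of each other. DESeq2, run as an alternative, called Bbc3 at the high dose (adjusted p = 0.0141) and for all curcumin livers (adjusted p = 0.00422). limma with voom and sample weights called it at the high dose (adjusted p = 0.0429). Over all 20 alternatives its adjusted p ran 0.0141 to 0.598 at the high dose and 0.00422 to 0.815 for all curcumin livers. Its log2 fold change kept its sign in 100 of 100 alternative fits, over the 3 doses, all curcumin livers and the slope. These fits share the same controls and are not independent. With all 9 curcumin livers below all controls, leaving out 1 library says little about the sign.

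Leaving out 1 library at a time gave -1.47 to -1.08 at the high dose and -1.31 to -0.93 for all curcumin livers. With the mitochondrial share as a covariate, Bbc3 was at -0.96, -0.99 and -1.15 at the low, medium and high dose. No control had a share below 58.6%, so that fit holds no control at the low shares of some curcumin livers. Marker sums of 2 cell types divided the livers as Bbc3 did. The summed neutrophil markers lay lower in all 9 curcumin livers than in all controls, with 6 of 6 tested markers lower at each dose. The summed B and plasma cell markers were also lower in all 9, at 6.07 to 13.9 CPM against 17.7, 29.9 and 16.01 CPM. Of these 7 markers, 7, 6 and 5 were lower at the low, medium and high dose. At the high dose 2 were higher, 1 of them with an unadjusted edgeR p under 0.05. The summed Kupffer cell and macrophage markers were 58.6 to 79.5 CPM at the low dose and 65.1 to 72.5 CPM at the medium dose, below the controls at 80.4 to 196.9 CPM, and 81.1 to 110.0 CPM at the high dose, within them. Without replicate 2 of the control, the library with the highest neutrophil sum, Bbc3 was at -0.83 at the low, -0.87 at the medium and -1.08 at the high dose. The part of these cells in the level of Bbc3 was not tested.

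**Figure D2:**
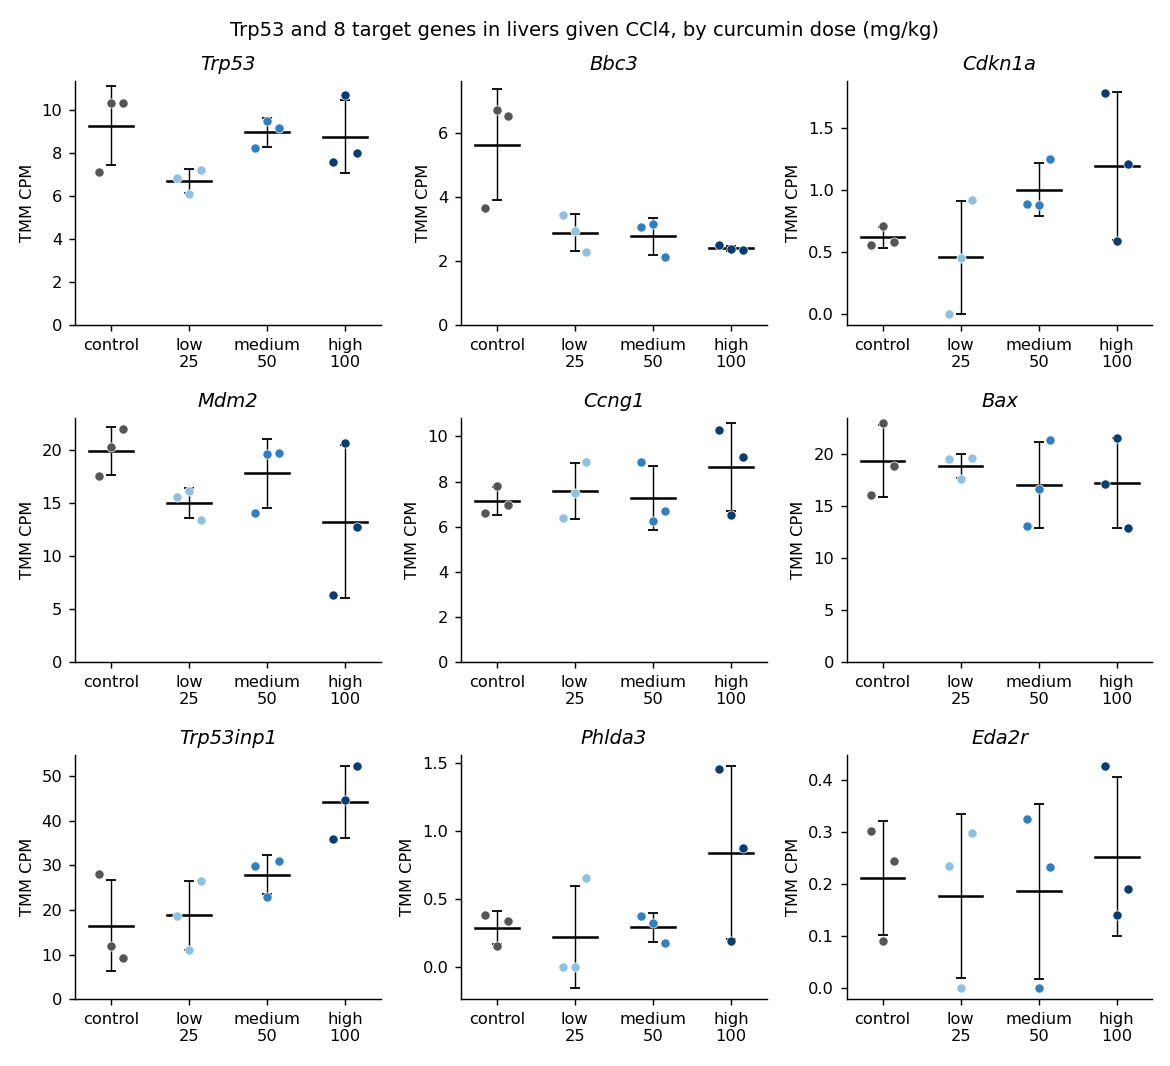
TMM CPM (y axes) of Trp53 and its 8 targets in the 12 livers, by group in order of curcumin dose (x axes, mg/kg). Points are livers, horizontal lines group means and bars ± 1 SD (n = 3). Bbc3 is at 2.12 to 3.43 CPM in the curcumin livers, all below the controls, Trp53inp1 is at 36.0 to 52.2 CPM at the high dose, and Cdkn1a, Phlda3 and Eda2r stay under 2 CPM.

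Bax, the pore-forming protein that BH3-only proteins activate, had 16.1, 23.0 and 18.9 CPM in the controls, 19.55, 17.6 and 19.6 CPM at the low dose, 13.1, 16.7 and 21.3 CPM at the medium dose, and 17.1, 21.6 and 12.95 CPM at the high dose. The livers overlapped at every dose, and the log2 fold changes were -0.03 ± 0.26, -0.18 ± 0.26 and -0.17 ± 0.26 (SE; edgeR adjusted p = 0.986, 0.997 and 0.799). Of the BCL-2 family beyond Bbc3 and Bax, 14 of 15 listed genes were tested and none passed. Their median log2 fold changes were -0.14, -0.24 and 0.07 at the low, medium and high dose, against 0.01, 0.02 and 0.03 over all genes. Unadjusted p was under 0.05 for 0, 1 and 2 of the 14, against 5.99%, 5.58% and 12.8% of all genes, so these counts were near the background. Bcl2l11, the gene of the BH3-only protein Bim, averaged 2.93 CPM in the control, 4.37 at the low, 2.86 at the medium and 4.61 CPM at the high dose, lowest at the medium dose. Bcl2l1, which encodes the survival protein BCL-XL, averaged 7.28, 9.71, 11.4 and 12.3 CPM in the same order of groups, with log2 fold changes of 0.42, 0.64 and 0.76. Bcl2, the founding survival gene of the family, averaged 1.53, 0.970, 0.975 and 0.862 CPM, and Bik, another BH3-only gene, 5.38, 7.10, 4.32 and 3.87 CPM.

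Cdkn1a encodes p21, the inhibitor of cyclin-dependent kinases through which p53 stops the cell cycle. It was sparse, with 22, 47 and 26 counts in the controls, 0, 16 and 83 counts at the low dose, 57, 57 and 80 counts at the medium dose, and 192, 25 and 76 counts at the high dose. In the low dose library with 0 counts, a level of up to 0.117 CPM (3 counts) would be missed by counting error alone. Scaled, it was 0.554, 0.710 and 0.580 CPM in the controls, 0, 0.447 and 0.916 CPM at the low dose, 0.883, 0.872 and 1.25 CPM at the medium dose, and 1.78, 0.587 and 1.20 CPM at the high dose. All 3 medium dose livers were above all controls, and the low and high dose livers overlapped them. The log2 fold changes were -0.34 ± 0.76, 0.70 ± 0.74 and 0.96 ± 0.74 (SE; edgeR adjusted p = 0.953, 0.997 and 0.576). With the mitochondrial share as a covariate, the value at the high dose was -0.0003, and without replicate 1 of that group it was 0.55. The value at the low dose was -1.37 without replicate 3 of that group, 0.17 without replicate 1 and -1.82 with limma and voom.

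The other kinase inhibitors and the proliferation genes were counted beside Cdkn1a. Of 6 listed inhibitors 4 were tested and none passed, and Cdkn1b, which encodes p27, averaged 12.2 CPM in the control, 13.4 at the low, 14.4 at the medium and 14.9 CPM at the high dose. Of 17 proliferation genes 16 were tested, with 13, 14 and 11 of them lower at the low, medium and high dose. Their median log2 fold changes were -0.82, -0.53 and -0.70, and none passed the test. These medians include sparse genes, such as Aurka, Aurkb and Cdc20, whose highest group means were 0.223, 0.331 and 0.225 CPM. The better counted Ccnd1 was at 0.06, -0.42 and 0.09, and Pcna at -0.09, -0.05 and 0.52. Mki67, the gene of the division marker Ki-67, averaged 2.01 ± 1.61, 0.804 ± 0.288, 1.15 ± 0.319 and 0.675 ± 0.377 CPM in the control, low, medium and high group (SD, n = 3 each), and Ccne1, the cyclin of entry into S phase, averaged 1.33, 0.831, 0.473 and 0.663 CPM.

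Trp53inp1 encodes a stress protein that acts with p53 in the nucleus and takes part in autophagy. It had 28.2, 11.95 and 9.32 CPM in the controls, 18.65, 11.15 and 26.5 CPM at the low dose, 29.8, 22.9 and 31.05 CPM at the medium dose, and 36.0, 44.55 and 52.2 CPM at the high dose. The 3 high dose livers were the highest of the 12, while the low and medium groups overlapped the controls. The medium group did so through replicate 1 of the control alone, at 28.2 CPM. Group means were 16.5 ± 10.2, 18.8 ± 7.70, 27.9 ± 4.41 and 44.2 ± 8.09 CPM in the order of dose (SD, n = 3 each). The log2 fold changes were 0.19 ± 0.41, 0.76 ± 0.42 and 1.43 ± 0.42 (SE; edgeR adjusted p = 0.952, 0.993 and 0.365), and the slope over 100 mg/kg was 1.49 ± 0.36 (edgeR adjusted p = 0.329, 49th of 16839 genes by p). Without replicate 1 of the control the values at the low, medium and high dose were 0.82, 1.39 and 2.05, without replicate 2 they were 0.0053, 0.58 and 1.24, and without replicate 3 they were -0.09, 0.48 and 1.14. DESeq2 called the slope (adjusted p = 0.0422, range 0.0422 to 0.74 over the alternatives), and limma with voom called the high dose (adjusted p = 0.0441, range 0.0441 to 0.598).

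Phlda3, which encodes a protein that keeps the kinase Akt from the membrane, had 15, 10 and 15 counts in the controls, 0, 0 and 59 counts at the low dose, 24, 21 and 11 counts at the medium dose, and 157, 8 and 55 counts at the high dose. Eda2r, the gene of a receptor for the ectodysplasin EDA-A2, had 12, 6 and 11 counts in the controls, 6, 0 and 27 counts at the low dose, 21, 0 and 15 counts at the medium dose, and 46, 6 and 12 counts at the high dose. Both were near the floor of detection, and no fold change is given for a gene under 20 counts in each control. The highest Phlda3 and Eda2r counts, like the highest Cdkn1a count, were in replicate 1 of the high dose, in counts and in CPM alike. That library also held the most counts outside the mitochondrial genes and their copies (36377767) and had the lowest mitochondrial share (30.3%). Its summed hepatocyte markers (47900 CPM) and its summed stellate cell and fibroblast markers (251.3 CPM, against 32.4 to 143.1 CPM in the other 11) were the highest of the 12. The part of these in the 3 genes was not tested.

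Per kilobase of exon, Bax was the most abundant member at a mean of 11.5 CPM per kb, followed by Trp53inp1 at 4.15, Mdm2 at 3.25, Ccng1 at 2.18, Trp53 at 2.09 and Bbc3 at 1.61 CPM per kb. Phlda3 at 0.262, Cdkn1a at 0.229 and Eda2r at 0.0352 CPM per kb were lower than the rest. Bax lay at the 93.6th percentile of the 16319 tested genes with a length, Bbc3 at the 65.4th and Cdkn1a at the 24.6th. Over the 12 livers, Bax did not overlap with Trp53inp1, nor Bbc3 with Phlda3, and all other neighbours in this order overlapped.

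The counts of members past each criterion were set beside those of all genes. Unadjusted edgeR p was under 0.05 for 1 of 9 members at the low dose (Bbc3; 5.99% of all genes), 1 at the medium dose (Bbc3; 5.58%) and 2 at the high dose (Bbc3 and Trp53inp1; 12.8%). It was also under 0.05 for these 2 in all curcumin livers together (9.37% of all genes), in the slope on dose (11.0%) and in the test of any difference among the groups (6.06%). After adjustment edgeR called 0 genes (0.0%) in each of these 6 comparisons, with 1008, 940, 2152, 1577, 1853 and 1021 genes under an unadjusted 0.05. DESeq2 called 42 genes at the low, 89 at the medium and 172 at the high dose, 165 for all curcumin livers, 67 for the slope and 161 for any difference (0.249%, 0.529%, 1.02%, 0.98%, 0.398% and 0.956% of genes). limma with voom called 35 at the medium dose, 256 at the high dose, 32 for all curcumin livers and 41 for any difference (0.208%, 1.52%, 0.19% and 0.243%), and 0 at the low dose and for the slope. Livers did not overlap with the controls for 2 of 9 members at each dose: Bbc3 and Mdm2 lower at the low dose, Bbc3 lower and Cdkn1a higher at the medium dose, and Bbc3 lower and Trp53inp1 higher at the high dose. Over all genes, 6.36% were lower and 7.41% higher in this way at the low dose (13.8% in all), 6.38% and 7.61% at the medium dose (14.0%), and 6.52% and 6.47% at the high dose (13.0%).

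**Figure D3:**
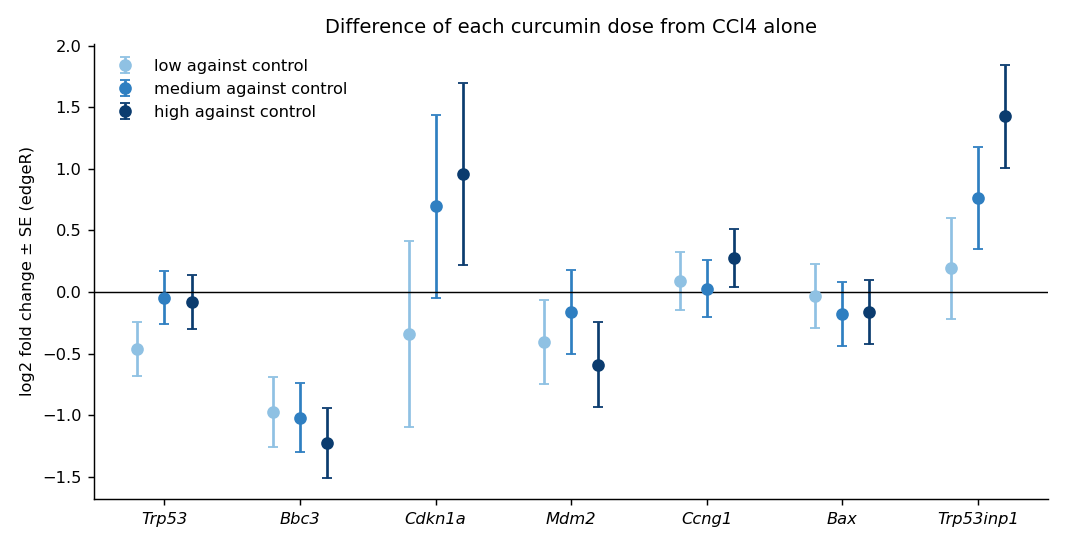
Log2 fold change of each curcumin dose against CCl4 alone (y axis; points, bars ± 1 SE from edgeR) for the 7 members with enough counts (x axis). Bbc3 is at -0.97, -1.02 and -1.23, and Trp53inp1 is at 1.43 at the high dose. Trp53 is at -0.47, -0.05 and -0.08, and Ccng1 and Bax lie between -0.18 and 0.28.

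The members did not all vary in the same direction from liver to liver. Over the 12 livers the 36 pairs had a median Pearson r of 0.02, with 18 pairs positive, and the 28 pairs among the 8 targets had a median of -0.09. The extremes were 0.75 for Cdkn1a with Phlda3 and -0.81 for Mdm2 with Ccng1. All pairs among Cdkn1a, Ccng1, Trp53inp1, Phlda3 and Eda2r were positive (0.049 to 0.75). So were all pairs among Trp53, Bbc3, Mdm2 and Bax (0.239 to 0.496). Every pair of Bbc3, Mdm2 or Bax with a gene of the first group was negative (-0.81 to -0.089), so the median near 0 joins opposite signs. These groups were read from the same coefficients. Bbc3 and Trp53inp1 stood at -0.77. These points share library composition and treatment groups, and the coefficients are descriptions only. The ratio of Trp53inp1 to Bbc3, per kilobase, was 2.53, 0.583 and 0.468 in the controls, 1.78, 1.25 and 3.79 at the low dose, 3.19, 2.38 and 4.81 at the medium dose, and 4.74, 6.16 and 7.30 at the high dose. The 2 genes were picked because they lay apart from the controls, with Trp53inp1 above and Bbc3 below every control at the high dose. All 3 high dose ratios therefore had to lie above the highest control ratio, which adds no further result. The low and medium groups overlapped the controls.

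**Figure D4:**
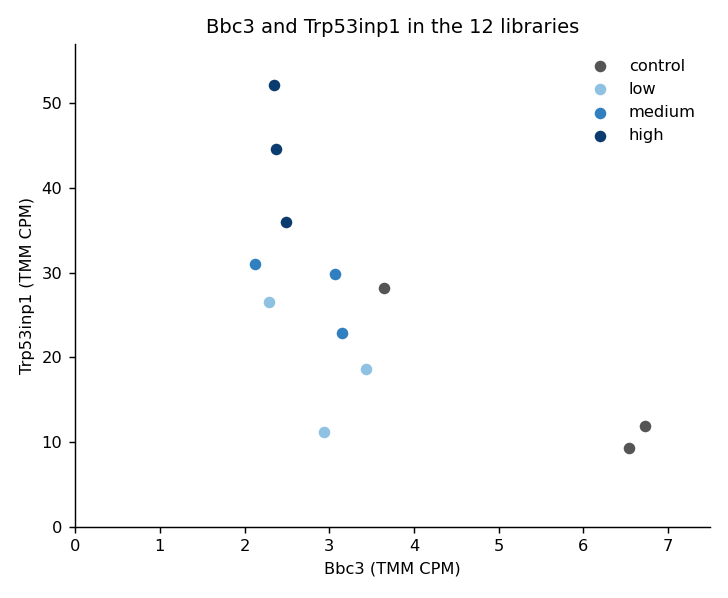
Bbc3 (x axis, TMM CPM) against Trp53inp1 (y axis, TMM CPM), 1 point per liver, coloured by group. The 3 high dose livers lie at the upper left (Bbc3 2.35 to 2.49, Trp53inp1 36.0 to 52.2 CPM), controls 2 and 3 at the lower right, and control 1 (3.65 and 28.2 CPM) between them, with Bbc3 just above the highest curcumin liver.

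Other p53 targets were taken as a list of 40 genes, of which 38 were tested. At the low, medium and high dose 27, 21 and 24 of them lay lower than the control, with median log2 fold changes of -0.14, -0.11 and -0.09, and none passed the test. Unadjusted p was under 0.05 for 2 higher and 4 lower at the low dose (2.49% and 3.5% of all genes), 1 and 3 at the medium dose (2.59% and 2.99%), and 1 and 5 at the high dose (7.87% and 4.91%). Gdf15, a cytokine of stressed cells, averaged 7.40 ± 2.15 CPM in the control, 2.28 ± 0.801 at the low, 2.16 ± 0.113 at the medium and 3.56 ± 2.11 CPM at the high dose (SD, n = 3 each), with log2 fold changes of -1.70, -1.77 and -1.07 (edgeR adjusted p = 0.764, 0.451 and 0.38). Ei24, a protein of the endoplasmic reticulum named for its induction by etoposide, lay the other way: 19.2 ± 3.88 CPM in the control, 31.4 ± 2.10 at the low, 38.7 ± 7.82 at the medium and 35.2 ± 3.60 CPM at the high dose (SD, n = 3 each). All 9 curcumin livers were above all controls for Ei24, and its log2 fold changes were 0.71, 1.01 and 0.88 (edgeR adjusted p = 0.80, 0.451 and 0.365). Gadd45a, a growth arrest and DNA damage gene, was at -1.29, -0.78 and -0.99, and Btg2, an antiproliferative gene, at -0.68, -0.88 and -0.09.

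Of 19 listed regulators and relatives of p53 16 were tested. At the low, medium and high dose 9, 8 and 13 of them lay lower than the control, with median log2 fold changes of -0.06, 0.03 and -0.23, and none passed the test. Atr, the kinase that senses stalled replication, averaged 11.6 CPM in the control, 8.71 at the low, 8.82 at the medium and 6.22 CPM at the high dose. It was lower in all 9 curcumin livers than in all controls, as were 1.2% of all tested genes. Like Mdm2, it divided the libraries by mitochondrial share, at 2.89 to 7.50 CPM in the 4 of lowest share and 9.30 to 12.04 CPM in the other 8. The cause was not tested. Chek2, a kinase that phosphorylates p53 after DNA breaks, averaged 1.30, 1.25, 0.727 and 0.937 CPM. Rpl5 and Rpl11, ribosomal proteins that bind Mdm2, had uncertain counts because both have many near-identical copies. Rpl5 averaged 35.8 CPM in the control, 54.1 at the low, 30.4 at the medium and 44.4 CPM at the high dose, and Rpl11 averaged 36.8, 80.3, 61.2 and 99.5 CPM. Livers overlapped the controls for both, and the 3 highest Rpl11 levels were in replicate 1 of the high dose, replicate 3 of the low dose and replicate 1 of the medium dose, at 183.5, 126.6 and 115.3 CPM.

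The FOXO and glucocorticoid response list was counted because Bbc3 is also a FOXO target, and was drawn up with earlier results of these data known. All 15 genes were tested, and 14, 12 and 14 lay higher at the low, medium and high dose, with median log2 fold changes of 0.54, 0.38 and 0.90. None passed the test, and unadjusted p was under 0.05 for 3 higher at the low dose (2.49% of all genes), 7 higher and 2 lower at the medium dose (2.59% and 2.99%), and 9 higher at the high dose (7.87%). The 2 lower were G6pc, at 0.54, -1.82 and 0.10 at the low, medium and high dose, and Irs2, at -0.52, -1.22 and -0.10. The list joins FOXO and glucocorticoid response genes, so its medians do not describe FOXO targets alone. Foxo1 had 7.65, 6.59 and 6.33 CPM in the controls, 8.23, 10.4 and 16.5 CPM at the low dose, 14.5, 14.0 and 18.5 CPM at the medium dose, and 14.4, 19.5 and 18.6 CPM at the high dose. All 9 curcumin livers were above all controls for Foxo1, a transcription factor of the fasted liver. Its log2 fold changes were 0.78, 1.19 and 1.35 (edgeR adjusted p = 0.80, 0.371 and 0.32). Zbtb16, a glucocorticoid-induced gene too sparse for a fold change, had 0.780 to 2.95 CPM in the 9 curcumin livers, above all controls at 0.453, 0.302 and 0.134 CPM. Ddit4, an inhibitor of mTOR signalling, was at log2 fold changes of 0.57, 1.46 and 2.2. Igfbp1, a hepatocyte FOXO target that binds insulin-like growth factors, was at 0.10, -0.996 and 1.41, lowest at the medium dose.

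**Figure D5:**
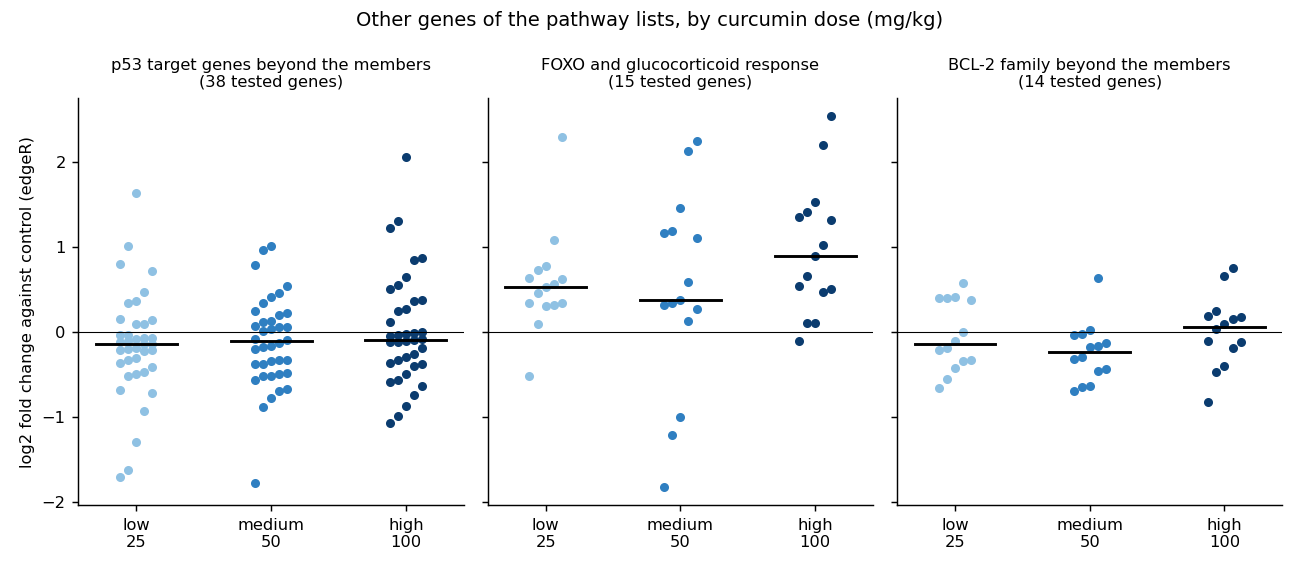
Log2 fold changes against control (y axis, edgeR) of the tested genes of 3 lists at the low, medium and high dose (x axes, mg/kg); each point is a gene, spread sideways for legibility, and black lines are medians. Medians are -0.14, -0.11 and -0.09 for the other p53 targets, 0.54, 0.38 and 0.90 for the FOXO and glucocorticoid list, and -0.14, -0.24 and 0.07 for the BCL-2 family.

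The genes most alike to 4 members were taken by Pearson r of log2 CPM over the 12 livers, among 9086 genes (9087 for Cdkn1a). Those nearest to Bbc3 were Nab2 (r = 0.944), Zfp36l1 (0.917), Camkk2 (0.898), Efna1 (0.888) and Shmt1 (0.872). Nab2, a corepressor of EGR factors, averaged 27.5 CPM in the control, 15.7 at the low, 14.3 at the medium and 11.8 CPM at the high dose. Nab2, Camkk2 and Shmt1 were lower in all 9 curcumin livers than in all controls, and Zfp36l1 and Efna1 were not. These genes were picked for their likeness to Bbc3 over the same 12 livers. Lower levels with curcumin largely follow from that choice and add no further result. Mdm2 was nearest to BC024386, Bckdhb, Rbbp6, Lgals8 and Cep152 (r = 0.97 to 0.98). Trp53 was nearest to Ahdc1, Jak3, Ggcx, Mtmr12 and Ddx58 (0.886 to 0.914), and Cdkn1a to Alg2, Sssca1, Sh3bp5, Yipf2 and Atp6v0a1 (0.888 to 0.904). With Spearman's rho in place of Pearson's r, 1 of the 5 nearest genes was shared for Bbc3, 0 for Cdkn1a, 0 for Mdm2 and 3 for Trp53.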

How the data were processed

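Total RNA from 12 whole livers, extracted with TRIzol, was sequenced, and 3 mice made up each group by the labels. The authors deposited 1 table of raw counts per gene for all 12 libraries, with Ensembl IDs. Per the submitters' processing notes, fastp 0.23.4, STAR 2.7.10b, StringTie 2.2.1 and build mm39 were used. The counting step, its strand setting and its treatment of reads that map to several places are not given in the sources used here. Such reads can move counts between a gene and its copies, and without strand a gene and an antisense partner cannot be told apart. Genes that overlap Bax and Cdkn1a held 9 counts each over the 12 libraries, and the Trp53 pseudogene 7, against 12803 for Bax, 681 for Cdkn1a and 6002 for Trp53.

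Symbols were matched for 52073 of 56923 IDs (91.48%) from a reference name table. The counts were tested with edgeR 4.0.16 in R 4.3.3 (TMM scaling, its default filter by group, robust quasi-likelihood F test, Benjamini-Hochberg adjustment over 16839 genes, threshold 0.05) in 1 fit of all 12 libraries, which gives the groups a common estimate of the spread. CPM are TMM-scaled, log2 CPM use a prior count of 2, and each standard error is the log2 fold change divided by the root of F. The slope takes the control as 0 mg/kg. The alternatives used DESeq2 1.42.0, limma 3.58.1 (voom with sample weights), other scalings, no filter, the mitochondrial share as a covariate, a replicate block and each library left out. The code was tested on simulated counts. A floor of 3 counts covers counting error only.

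Nuclear copies of mitochondrial genes were found with BLAST 2.17.0 (at least 95% identity over at least 80% of the transcript), and copies of members likewise over at least 200 bases. Gene lengths are unions of exons in GENCODE release M21. That reference is on GRCm38, so only gene names, lengths and the RefSeq promoter windows of that build were used, and no coordinate was joined to the counts; windows on mouse chromosome 18 were left out. Replicates of a group differed by far more than sampling noise (chi-square per degree of freedom 42.0 or more). Libraries of the same number in different groups deviated together no more (18 pairs, median r -0.04, 5 over 0.1) than those of different numbers (36 pairs, median r 0.01, 11 over 0.1). The labels state no pairing of the mice by number, and these correlations cannot exclude one. All members are named, and in each list up to 4 tested genes with the smallest p for any difference among the groups. Bub1, with 0 counts in many libraries, is not described. G6pc, Irs2, Aurka, Aurkb, Cdc20, Ccnd1 and Pcna are named in addition, for their direction or their sparse counts. The members, the lists and the marker genes were chosen with earlier results of these data known.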

Additional observations from a re-analysis of the deposited data

How the results depend on the processing

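Bbc3 kept its sign in all 100 alternative fits, Trp53inp1 in 98, Mdm2 in 97 and Cdkn1a in 95 of 100. Bax kept it in 53, Trp53 in 50 and Ccng1 in 47 of 60. Fits for all curcumin livers and the slope were counted only for members that did not overlap the controls at 1 dose or more. The fits share libraries, so they are not independent. The number of genes called depended on the test. Against 0 in edgeR, DESeq2 called 42, 89 and 172 at the low, medium and high dose, 165 for all curcumin livers, 67 for the slope and 161 for any difference, and limma with voom called 35 at the medium and 256 at the high dose, 32 for all curcumin livers and 41 for any difference. DESeq2 called 1 member at the high dose, for all curcumin livers and for any difference (Bbc3) and 1 for the slope (Trp53inp1), and voom called 2 at the high dose. Without the filter, edgeR called 3 genes for all curcumin livers. Leaving out 1 library at a time gave 0 to 2 genes at the low dose, and 0 to 1 for all curcumin livers and for any difference. The cause was not tested.

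Library totals without TMM moved the median of all genes to 0.11, 0.47 and 0.71 at the low, medium and high dose and 0.75 for the slope. On that scale Bbc3 was at -0.94, -0.53 and -0.52, and these log2 fold changes turned sign: Cdkn1a low 0.0672, Bax 0.0806, 0.22 and 0.42 at the low, medium and high dose, Trp53 medium 0.40 and high 0.53, Mdm2 medium 0.27 and slope 0.0192. Each of these lay below the median of all genes on that scale. Totals without mitochondrial genes and copies turned Ccng1 to -0.0871, -0.10 and -0.0556 at the 3 doses. With the mitochondrial share as a covariate, Ccng1 was at -0.0087, -0.11 and -0.0576, Bax low at 0.0251, Trp53 medium at 0.0142 and high at 0.0514, Mdm2 medium at 0.0608, and Cdkn1a at -0.0003 at the high dose and -0.13 for all curcumin livers. With voom, Ccng1 was at -0.0065 and -0.10 at the low and medium dose and Cdkn1a at -0.0981 for all curcumin livers. Ccng1 at the medium dose was -0.0036 with DESeq2's size factors and -0.0044 with DESeq2.

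Leaving out 1 library gave a range across 0 for Cdkn1a low (-1.37 to 0.17), Ccng1 low (-0.0478 to 0.19), Bax low (-0.15 to 0.11), Trp53inp1 low (-0.15 to 0.82), Trp53 medium (-0.20 to 0.0394), Ccng1 medium (-0.14 to 0.11), Trp53 high (-0.25 to 0.0111) and Bax high (-0.36 to 0.0023). With a replicate block edgeR called 0 genes in every comparison, and Bbc3 was at -0.98, -1.03 and -1.23 at the low, medium and high dose. The labels state no pairing of the mice by number, and the block changed no call. Cdkn1a, Phlda3 and Eda2r were at 0 counts in 1 to 2 libraries each, and the cause was not tested.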
